A study of Homo sapiens with 8 samples.

Results

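The comparison described here set HMLE cells carrying an shRNA against SOX4 beside HMLE cells carrying a scrambled shRNA, both left without TGF-β. HMLE is a line of human mammary epithelial cells immortalized with SV40 large T antigen and telomerase. Members are 4 of the 8 libraries, taken by their labels, 2 with the SOX4 shRNA and 2 with the scrambled shRNA. The other 4 libraries carried the same shRNAs and were given TGF-β for 16 h. All groups had been transduced with lentivirus and kept under puromycin at 0.5 µg/mL, so the controls share the vector and the selection. A single shRNA against SOX4 was used, and effects of its sequence on other transcripts cannot be told apart from those of SOX4. The sources used here do not say whether the cells were pools or clones, nor whether both libraries of a group were grown apart. The p-values therefore rest on the spread between these libraries alone, and that spread may be technical.

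SOX4 is a transcription factor of the SoxC family, which bends DNA through an HMG box and is active in progenitor cells during development. In mammary epithelial cells it is known as a gene induced by TGF-β and as one of the factors tied to epithelial-mesenchymal transition, in which cells gain collagens, N-cadherin and vimentin. The comparison without TGF-β asks which transcripts differ when SOX4 is reduced in cells to which no cytokine was added.

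Expression was read as FPKM, the number of reads per kilobase of transcript scaled to the depth of the library, for 48175 RefSeq transcripts. As deposited, 34.1% of the values had lost their decimal mark. For genes with a single transcript the marks were restored from the whole numbers of reads behind the values. Between possible readings, those with replicates alike and with small effects of knockdown and TGF-β were favoured. Of 12012 genes with at least 1 FPKM in at least 2 libraries, 5069 could be read in this way and were tested. The untreated libraries held 3.60 to 4.82 M reads in these genes, with a median of 364 to 483 reads a gene. Replicates differed by a median of 0.14 on the log2 scale in scrambled-shRNA cells and 0.22 in SOX4-shRNA cells, while the fit used a single spread for all groups.

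The cells were first set against markers of the tissue. KRT5 and KRT14, the keratins of basal epithelium, were among the most abundant transcripts at 2940 to 3945 and 1446 to 2106 FPKM over the 4 untreated libraries. Of 12 luminal markers, 8 had readable values and KRT8, KRT18, GATA3 and MUC1 did not. Of these 8, AGR2 was highest at 2.58 to 3.25 FPKM, ELF5 and KIT were listed at 0, and the other 5, among them KRT19, ESR1, PGR and FOXA1, were at most 0.405 FPKM. All 8 endothelial markers stayed at or below 0.168 FPKM. Of 8 immune markers, 6 had readable values, none above 0.785 FPKM, and CD68 and CSF1R did not. Marks were lost only from values of at least 1 FPKM, so each unread marker reached that level in an untreated library. The low ceilings of the luminal and immune markers thus cover only the readable ones. Fibroblast markers differed with the shRNA. Of 13 listed, 6 were tested and 5 of these fell, namely COL1A1, COL1A2, COL3A1, THY1 and TWIST1, where 3.37% of all genes tested fell. The 8 members with readable values summed to 170.3 and 154.6 FPKM with the scrambled shRNA and to 70.0 and 53.4 FPKM with the SOX4 shRNA. The 2 readable members that were not tested, LUM and PDGFRA, peaked at 0.0827 FPKM. The other 5, DCN, FAP, TWIST2, MFAP5 and FBLN1, were unread, so each had at least 1 FPKM in an untreated library. The low values of LUM and PDGFRA thus do not stand for the whole list. No readable member was at 0 in all 4 libraries. The part of fibroblast-like cells in the falls of matrix genes described below was not tested. In bulk RNA, fewer cells of a type and less RNA per cell cannot be told apart.

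SOX4 itself was read at 8.74 and 8.04 FPKM with the scrambled shRNA and at 0.923 and 1.02 FPKM with the SOX4 shRNA. These values rest on 686 and 475 reads against 60 and 74 reads. The groups did not overlap, and the linear ratio of their means was 8.64. With 1 FPKM added before the logarithm, the log2 fold change was -2.25 ± 0.13 (SE; limma adjusted p = 0.00011), and with 0.1 FPKM added it was -2.99. The SOX4 gene lies on chromosome 6 at 21593982 to 21598850 (GRCh37, plus strand) and has 1 exon. Of 6 SOX genes tested it alone was called. SOX15 was at 82.2 and 67.9 FPKM with the scrambled shRNA and 62.4 and 39.8 FPKM with the SOX4 shRNA (adjusted p = 0.23), while SOX9 (-0.09 ± 0.12) and SOX7 (0.40 ± 0.15) had adjusted p of 0.74 and 0.18.

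**Figure D1:**
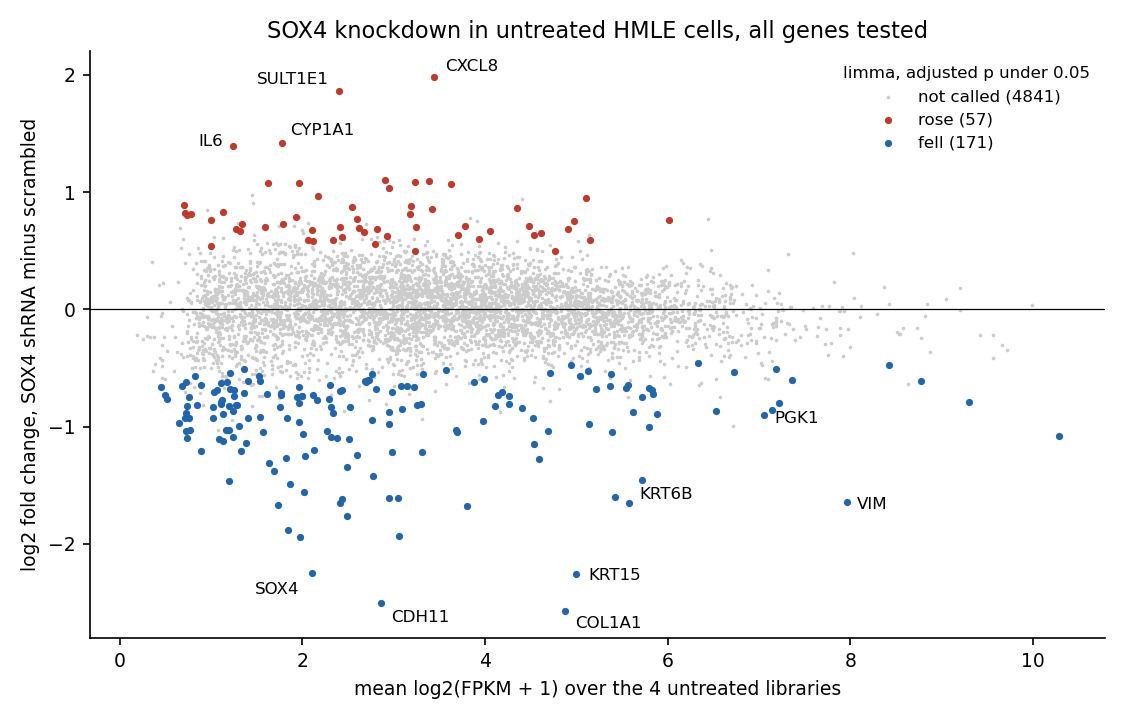
Log2 fold change of the knockdown in untreated cells (y axis) against the mean level over the 4 untreated libraries (x axis, log2 of FPKM + 1) for the 5069 genes tested. Each point is a gene, with 57 that rose in red, 171 that fell in blue and the others in grey. COL1A1, CDH11, KRT15 and SOX4 lie lowest and CXCL8 and SULT1E1 highest.

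Genes that fell outnumbered those that rose. Of 5069 genes tested, 57 rose (1.12%) and 171 fell (3.37%), together 228 (4.5%), at a Benjamini-Hochberg adjusted p under 0.05 in limma, and 978 had an unadjusted p under 0.05. For each of the 228 both SOX4-shRNA libraries lay beyond both scrambled libraries, a pattern that 24.1% of all genes tested showed upward and 22.8% downward. The falls had a median log2 fold change of -0.83 and 56 of them were at least 1 in size. The rises had a median of 0.73 and 11 reached 1. The number called depended on the libraries: the 228 became 46 and 60 without scrambled untreated replicates 1 and 2, 144 and 103 without SOX4-shRNA untreated replicates 1 and 2, and 112 without either scrambled library given TGF-β. With the untreated groups fitted alone it was 81. Of the falls, 34 were called in each of the 8 fits that left out a library, and of the rises 3, namely CXCL8, SULT1E1 and BLTP3A.

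The largest falls were in genes of the matrix, of cell adhesion and of keratin filaments. COL1A1, a chain of type I collagen, was at 73.7 and 67.2 FPKM with the scrambled shRNA and at 12.8 and 9.42 FPKM with the SOX4 shRNA. CDH11, a cadherin of mesenchymal cells, was at 15.4 and 17.2 FPKM against 1.98 and 2.09 FPKM. KRT15, a keratin of the basal layer of stratified epithelia, was at 65.4 and 72.2 FPKM against 12.6 and 14.7 FPKM. In each of the 3 genes the SOX4-shRNA libraries lay near each other and far below both scrambled libraries, with log2 fold changes of -2.57 ± 0.18, -2.51 ± 0.11 and -2.26 ± 0.12 (SE; adjusted p = 0.00018, 5.1e-05 and 0.00011). All 3 are read from the minus strand. In GRCh37, the 51 exons of COL1A1 span 48261462 to 48278993 of chromosome 17, and the 8 exons of KRT15 span 39669997 to 39678781 of the same chromosome. The 13 exons of CDH11 span chromosome 16 from 64977656 to 65160015.

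A further 11 genes made up the 15 largest falls together with these and SOX4, and all 15 were called in each of the 8 fits that left out a library. CADM3-AS1, a noncoding RNA transcribed opposite to CADM3, went from 6.69 and 6.71 to 1.02 and 0.980 FPKM (log2 fold change -1.94 ± 0.11). ADAMTS1, a secreted protease that cleaves proteoglycans, went from 5.66 and 6.10 to 0.906 and 0.826 FPKM (-1.88 ± 0.12). CALML3, a calmodulin-like protein of epithelia, was at 9.66 and 9.08 FPKM against 2.32 and 1.81 FPKM (-1.76 ± 0.17). In these genes too the groups lay apart by far more than their replicates. PFKFB4, which sets the level of the glycolytic activator fructose 2,6-bisphosphate, was at 14.6 and 12.4 FPKM against 3.44 and 4.04 FPKM (-1.61 ± 0.17, adjusted p = 0.0024). The other 7 were COL6A1, FBLN5, XYLT1, CDH2, KRT6B, VIM and COL1A2, described with their groups.

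The largest rises included secreted signals and enzymes that act on steroids and aromatic compounds. CXCL8, a chemokine that attracts neutrophils, was at 4.44 and 4.53 FPKM with the scrambled shRNA and at 18.8 and 22.6 FPKM with the SOX4 shRNA (log2 fold change 1.98 ± 0.13, adjusted p = 0.00017). SULT1E1, the estrogen sulfotransferase, was at 1.74 and 1.81 FPKM against 8.16 and 10.1 FPKM (1.87 ± 0.14, adjusted p = 0.00027). Both genes rose to levels far above either control library, although the SOX4-shRNA replicates were less alike than the controls. CYP1A1, a monooxygenase induced through the aryl hydrocarbon receptor, was at 0.916 and 1.28 FPKM against 5.53 and 3.78 FPKM (1.42 ± 0.20, adjusted p = 0.0077). IL6, an inflammatory cytokine, was at 0.182 and 0.807 FPKM against 2.49 and 3.22 FPKM, which is 3 and 10 reads against 34 and 49 reads (1.39 ± 0.25, adjusted p = 0.019).

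Among the other 11 of the 15 largest rises, BLTP3A, a lipid transfer protein, went from 3.84 and 4.39 to 9.35 and 10.6 FPKM (1.10 ± 0.12). The growth factor gene FGF2 went from 5.67 and 5.28 to 11.3 and 14.3 FPKM (1.08 ± 0.15), and the cell adhesion gene CADM4 from 7.0 and 5.38 to 15.4 and 13.2 FPKM (1.09 ± 0.15). The rest were TENM2, a teneurin of the cell surface (1.08 ± 0.14), ACKR3, a scavenging receptor for chemokines (1.07 ± 0.24), the squamous serpin SERPINB13 (1.07 ± 0.18), the interferon-inducible helicase DDX60 (1.03 ± 0.21), CXCL2, IL1A, IRF1 and CACNG4, a subunit of calcium channels (0.89 ± 0.18). Of these 15 rises 12 lost their call in at least 1 fit that left out a library. Of the 30 largest changes in both directions, 20 and 21 were called without scrambled untreated replicates 1 and 2, and 25 to 29 without any one of the other libraries. ACKR3 was called in 1 of 8 such fits, with log2 fold changes from 0.72 to 1.43, and DDX60 and CACNG4 in 2 of 8 each, with adjusted p up to 0.19 for both.

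**Figure D2:**
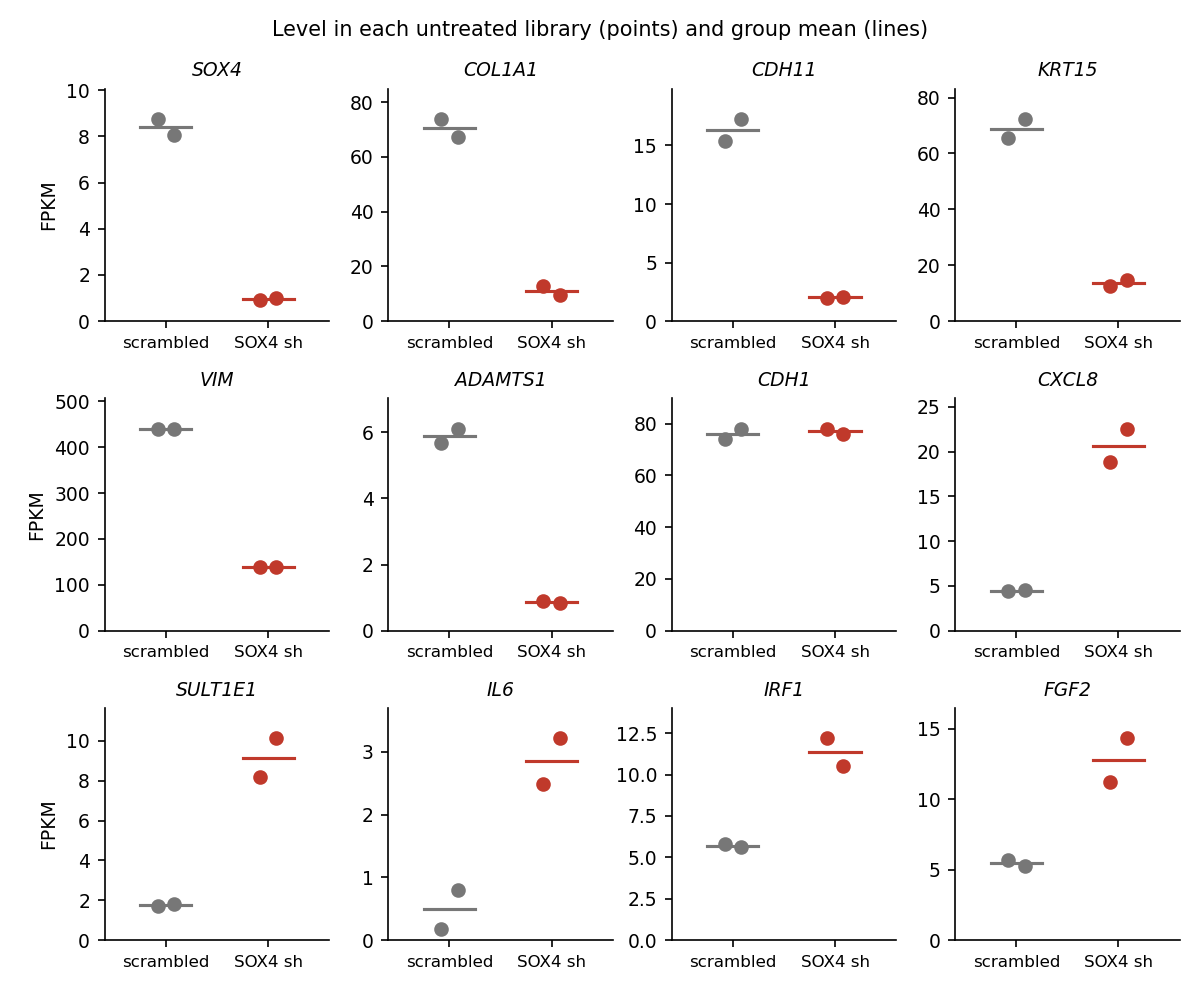
FPKM (linear axes from 0 that differ between panels) of 12 genes in each untreated library, with grey points for the scrambled shRNA, red points for the SOX4 shRNA and lines for the group means. In SOX4, COL1A1, CDH11, KRT15, VIM and ADAMTS1 the red points lie below the grey ones, in CXCL8, SULT1E1, IL6, IRF1 and FGF2 above, and in CDH1 they overlap.

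For 7 of the 228 called genes the reading of the decimal mark had a posterior under 0.99, and with the next reading the direction would turn. The log2 ratio would be 0.64 for COL1A1 (posterior 0.988), 0.32 for CDH11 (0.955), 1.24 for CDH2 (0.989), 1.45 for ADAM19 (0.961) and 0.15 for GDF15 (0.977) instead of a fall, and -0.96 for SULT1E1 (0.972) instead of a rise. The gene F8A1, named for this reason alone, is the seventh (0.988, fall of 0.81 and a ratio of 0.23). Over all 228 calls the posteriors of other readings summed to 0.272. Whether reads were counted by strand is not stated in the sources used here, and 29 of the 70 named genes that were called have exons overlapped by a gene on the opposite strand, among them SOX4, COL1A1, VIM, CDH2, IL6, FGF2, IRF1, XYLT1, ADAM19, DKK1, HAS2 and CADM3-AS1, so reads of the 2 strands cannot be told apart for these. Overlap on the same strand makes CDH11, SULT1E1, PFKFB4, FGF2, PGK1, IFIT2, COL7A1, TIMP2, CYP1B1 and FZD8 uncertain too.

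The 250 bases before the start of transcription are shown for the 3 largest falls and the largest rise that have an entry in the RefSeq promoter table (GRCh38.p14), so that the levels of these genes can be read beside the sequence upstream of them. They are printed 5′ to 3′ in the direction of transcription, in lower case, with capitals for matches on either strand to 6 motifs: the SOX motifs ACAAAG and ACAATG, the AP-1 motif TGACTCA, the NF-kappaB motif GGAATTTCC, the TATA box TATAAA and the CCAAT box CCAAT. COL1A1, CDH11 and KRT15 are not among the promoters used here.
SOX4 (chr6:21593501-21593750, plus strand, fell): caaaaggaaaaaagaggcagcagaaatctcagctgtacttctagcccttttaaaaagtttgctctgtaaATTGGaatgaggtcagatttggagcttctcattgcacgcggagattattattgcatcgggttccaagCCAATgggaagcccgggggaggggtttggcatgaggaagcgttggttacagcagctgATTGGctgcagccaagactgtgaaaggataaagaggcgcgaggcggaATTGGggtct
CADM3-AS1 (chr1:159202423-159202672, minus strand, fell): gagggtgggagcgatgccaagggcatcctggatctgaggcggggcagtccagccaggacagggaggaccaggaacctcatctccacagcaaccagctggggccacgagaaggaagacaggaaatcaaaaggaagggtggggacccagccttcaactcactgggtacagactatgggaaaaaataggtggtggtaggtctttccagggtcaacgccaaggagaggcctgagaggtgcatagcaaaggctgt
CALML3 (chr10:5524711-5524960, plus strand, fell): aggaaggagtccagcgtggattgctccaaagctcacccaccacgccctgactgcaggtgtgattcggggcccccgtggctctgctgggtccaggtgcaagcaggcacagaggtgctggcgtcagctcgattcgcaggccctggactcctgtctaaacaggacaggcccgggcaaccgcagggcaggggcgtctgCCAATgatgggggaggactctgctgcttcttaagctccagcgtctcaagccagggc
CXCL8 (chr4:73740319-73740568, plus strand, rose): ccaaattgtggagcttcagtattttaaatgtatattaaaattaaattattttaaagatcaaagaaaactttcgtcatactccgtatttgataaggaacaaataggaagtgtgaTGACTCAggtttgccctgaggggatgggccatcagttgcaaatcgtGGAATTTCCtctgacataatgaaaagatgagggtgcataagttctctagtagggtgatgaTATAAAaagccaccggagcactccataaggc

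The CXCL8 window held the AP-1 motif from 137 to 131 bases, the NF-kappaB motif from 91 to 83 bases and the TATA box from 31 to 26 bases before the start. The SOX4 window held 4 CCAAT boxes, the CALML3 window 1 and the CADM3-AS1 window none of the motifs searched. Neither SOX motif was in any of the 4 windows. Over the same window, a SOX motif was present in 21.4% of all 27305 promoters in the table, in 12.2% of the 4024 tested genes with an entry, in 21 of the 126 falls with an entry (16.7%) and in 7 of 38 rises (18.4%). The AP-1 motif was in 2.41% of the tested genes' promoters, the NF-kappaB motif in 0.447%, the TATA box in 4.95% and the CCAAT box in 36% of them. Among the falls these shares were 6.35%, 0.794%, 15.1% and 42.1%, and among the rises 7.89%, 5.26%, 18.4% and 28.9%. A match is a string of letters and not a bound site, and these shares were not tested.

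Chains of the interstitial collagens, which build the fibres of connective tissue, fell in 6 of 9 cases tested and rose in none, beside 3.37% of all genes that fell. Their median log2 fold change was -1.04, against 0.00 for all genes tested. The lists here and below, like the markers above, were chosen with earlier results of these data known. Their shares are descriptions, to be read beside 3.37% of all genes that fell and 1.12% that rose. COL1A2, the partner chain of COL1A1 in type I collagen, was at 8.47 and 8.48 FPKM with the scrambled shRNA and 2.24 and 1.95 FPKM with the SOX4 shRNA (-1.62 ± 0.11). COL6A1, a chain of the beaded type VI collagen, was at 16.6 and 14.1 FPKM against 3.79 and 2.79 FPKM (-1.93 ± 0.18). The type III chain COL3A1 (-1.31 ± 0.13) and the type V chains COL5A3 (-1.04 ± 0.13) and COL5A2 (-0.65 ± 0.13) fell too. The 1 FPKM added before the logarithm makes changes at low levels look smaller. The linear ratio of means was 3.99 for COL3A1 and 4.04 for COL1A2. COL16A1 (-0.24 ± 0.14), COL27A1 (-0.20 ± 0.15) and COL22A1, at most 0.644 FPKM in these libraries, were not called (adjusted p = 0.40, 0.52 and 0.063). COL22A1 had 46 and 50 reads with the scrambled shRNA against 9 and 3, a linear ratio of means of 7.97. COL5A2 was called in 2 of the 8 fits without a library, with adjusted p up to 0.21.

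In the basement membrane list 3 of 9 tested genes fell, beside 3.37% of all genes tested, with a median over the list of -0.22. COL7A1, which forms the fibrils that anchor epithelium to the tissue below, was at 87.1 and 72.1 FPKM against 43.2 and 41.3 FPKM (-0.89 ± 0.19, adjusted p = 0.039). The nidogens NID1 (-0.81 ± 0.15) and NID2 (-0.92 ± 0.14), linkers of laminin and collagen IV networks, also fell, at levels of 1.12 to 3.14 FPKM in the controls. The laminin chains LAMB1 (-0.28 ± 0.11) and LAMC1 (0.08 ± 0.12) and the proteoglycan gene AGRN (-0.06 ± 0.28) were not called. COL7A1 kept its call in 2 of the 8 fits without a library, NID1 in 3 and NID2 in 5.

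Of 6 elastic fibre genes tested, 2 fell, beside 3.37% of all genes tested. FBLN5, a fibulin that assembles elastin, was at 26.4 and 21.8 FPKM with the scrambled shRNA and 7.70 and 6.04 FPKM with the SOX4 shRNA (-1.67 ± 0.15). FBN1, the fibrillin of microfibrils, was at 3.84 and 4.60 FPKM against 1.05 and 0.959 FPKM (-1.38 ± 0.13). Both were called in all 8 fits without a library. The collagen-modifying enzyme genes PLOD1 (-0.57 ± 0.15, adjusted p = 0.070) and LOXL2 (-0.06 ± 0.16) and the latent TGF-β-binding protein gene LTBP2 (-0.15 ± 0.12) were not called, and the list's median was -0.45.

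In the list of matricellular genes and proteoglycans, 4 of 10 tested members fell, beside 3.37% of all genes tested. None rose, and the median was -0.16. XYLT1, which starts the sugar chains of proteoglycans, was at 4.84 and 5.04 FPKM against 0.937 and 0.797 FPKM (-1.67 ± 0.11). SPOCK1, a testican, was at 7.64 and 8.30 FPKM against 2.44 and 2.63 FPKM (-1.34 ± 0.11), and the small leucine-rich proteoglycan gene BGN at 11.1 and 9.32 FPKM against 3.88 and 2.56 FPKM (-1.42 ± 0.17). Each of these 3 fell in all 8 fits without a library. HAS2, a hyaluronan synthase, was low throughout, with 36 reads in each control library and 5 and 3 in the SOX4-shRNA libraries (-0.73 ± 0.15, adjusted p = 0.033), and was called in 2 of the 8 fits without a library, with adjusted p up to 0.19. CCN1, SPARC and the syndecan gene SDC4, between 61.9 and 127.6 FPKM in the controls, had log2 fold changes of -0.06, -0.22 and 0.22.

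Of 12 proteases and inhibitors of the matrix, 4 fell and 1 rose, beside 3.37% and 1.12% of all genes tested. ADAM19, a membrane-bound sheddase, was at 12.6 and 12.2 FPKM with the scrambled shRNA and at 3.65 and 3.18 FPKM with the SOX4 shRNA (-1.61 ± 0.11). ADAMTS1 is given above, and its relative ADAMTS6 was at 3.75 and 4.58 FPKM against 1.82 and 2.36 FPKM (-0.74 ± 0.14). The metalloprotease inhibitors moved in opposite directions. TIMP1 was at 209.8 and 170.3 FPKM against 110.4 and 97.5 FPKM (-0.86 ± 0.17), and TIMP2 at 9.52 and 9.42 FPKM against 15.7 and 14.7 FPKM (0.63 ± 0.10). TIMP3 (-0.35 ± 0.10, adjusted p = 0.11), ADAM10 (0.13 ± 0.16) and ADAM17 (0.14 ± 0.14) were not called. TIMP1 kept its call in 2 and TIMP2 and ADAMTS6 in 3 of the 8 fits without a library.

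Mesenchymal structural genes fell in 4 of 4 cases tested, beside 3.37% of all genes tested, with a median log2 fold change of -1.65. This list too was chosen with earlier results of these data known. VIM, the intermediate filament protein of mesenchymal cells, was at 440.2 FPKM in both scrambled libraries and at 139.7 and 139.9 FPKM with the SOX4 shRNA (-1.65 ± 0.10, adjusted p = 0.00011). CDH2, N-cadherin, was at 8.40 and 8.54 FPKM against 1.76 and 2.27 FPKM (-1.65 ± 0.12). CDH11 is given above. THY1, a surface glycoprotein of mesenchymal and basal cells, was at 77.1 and 68.8 FPKM against 50.4 and 37.8 FPKM (-0.72 ± 0.16, adjusted p = 0.044). Of these 4, THY1 lost its call in 5 of the 8 fits without a library. The other 18 genes of the list were not tested. Among transcription factors of epithelial-mesenchymal transition, TWIST1 went from 5.62 and 5.14 to 2.95 and 2.55 FPKM (-0.77 ± 0.13, adjusted p = 0.016). TWIST1 lost its call in some of the 8 fits without a library, with log2 fold changes of -0.84 to -0.69. SNAI2, at 77.2 to 90.3 FPKM, had a log2 fold change of -0.17 ± 0.10 and FOXC1 one of -0.42 ± 0.12, and neither was called.

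Calls among genes of epithelial identity and adhesion are to be read beside 4.5% of all genes tested that were called. At that share few or none would be called in lists this small, so the counts do not set these genes apart. None of 7 tested epithelial identity factors passed the test, with ESRP2 at -0.03 ± 0.13, KLF4 at 0.13 ± 0.13 and GRHL2 at 0.27 ± 0.10. None of 12 tested tight junction and adhesion genes passed it either, and their median was 0.10. CDH1, E-cadherin, was at 74.1 and 77.8 FPKM with the scrambled shRNA and 78.0 and 76.1 FPKM with the SOX4 shRNA (0.02 ± 0.10), so its groups overlapped. EPCAM was at 71.6 and 75.6 FPKM against 97.0 and 113.7 FPKM (0.51 ± 0.17, adjusted p = 0.15), and the P-cadherin gene CDH3 had a log2 fold change of -0.28 ± 0.11. Of 5 desmosome genes, PPL, which links desmosomes to filaments, rose from 23.6 and 21.9 to 39.4 and 35.1 FPKM (0.69 ± 0.11, adjusted p = 0.013), while DSG2, DSG3 and PKP3 did not pass the test (adjusted p = 0.25, 0.081 and 0.76). PPL was called in 5 of the 8 fits without a library.

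Keratins fell in 3 of 6 cases tested, beside 3.37% of all genes tested, with a median of -0.97. KRT6B, a keratin of activated and squamous epithelium, was at 83.3 and 83.5 FPKM against 27.3 and 24.4 FPKM (-1.65 ± 0.11). KRT16, its usual type I partner in activated epithelium, was at 83.8 and 71.4 FPKM against 42.5 and 34.1 FPKM (-1.0 ± 0.14, adjusted p = 0.0076). Both have near-identical copies in the genome, between which reads could be split, and are uncertain for that reason. KRT81 was at 14.2 and 11.5 FPKM against 7.58 and 5.02 FPKM and was not called (adjusted p = 0.090), nor were KRT6C and KRT75. Of 4 cornified envelope genes 1 rose and 1 fell, beside 1.12% and 3.37% of all genes tested. SERPINB13 rose from 7.42 and 7.66 to 14.4 and 19.7 FPKM. IVL, involucrin, fell from 2.62 and 2.25 to 0.596 and 0.634 FPKM (-1.09 ± 0.16, adjusted p = 0.0088), and TGM1 and SPRR2D were not called.

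**Figure D3:**
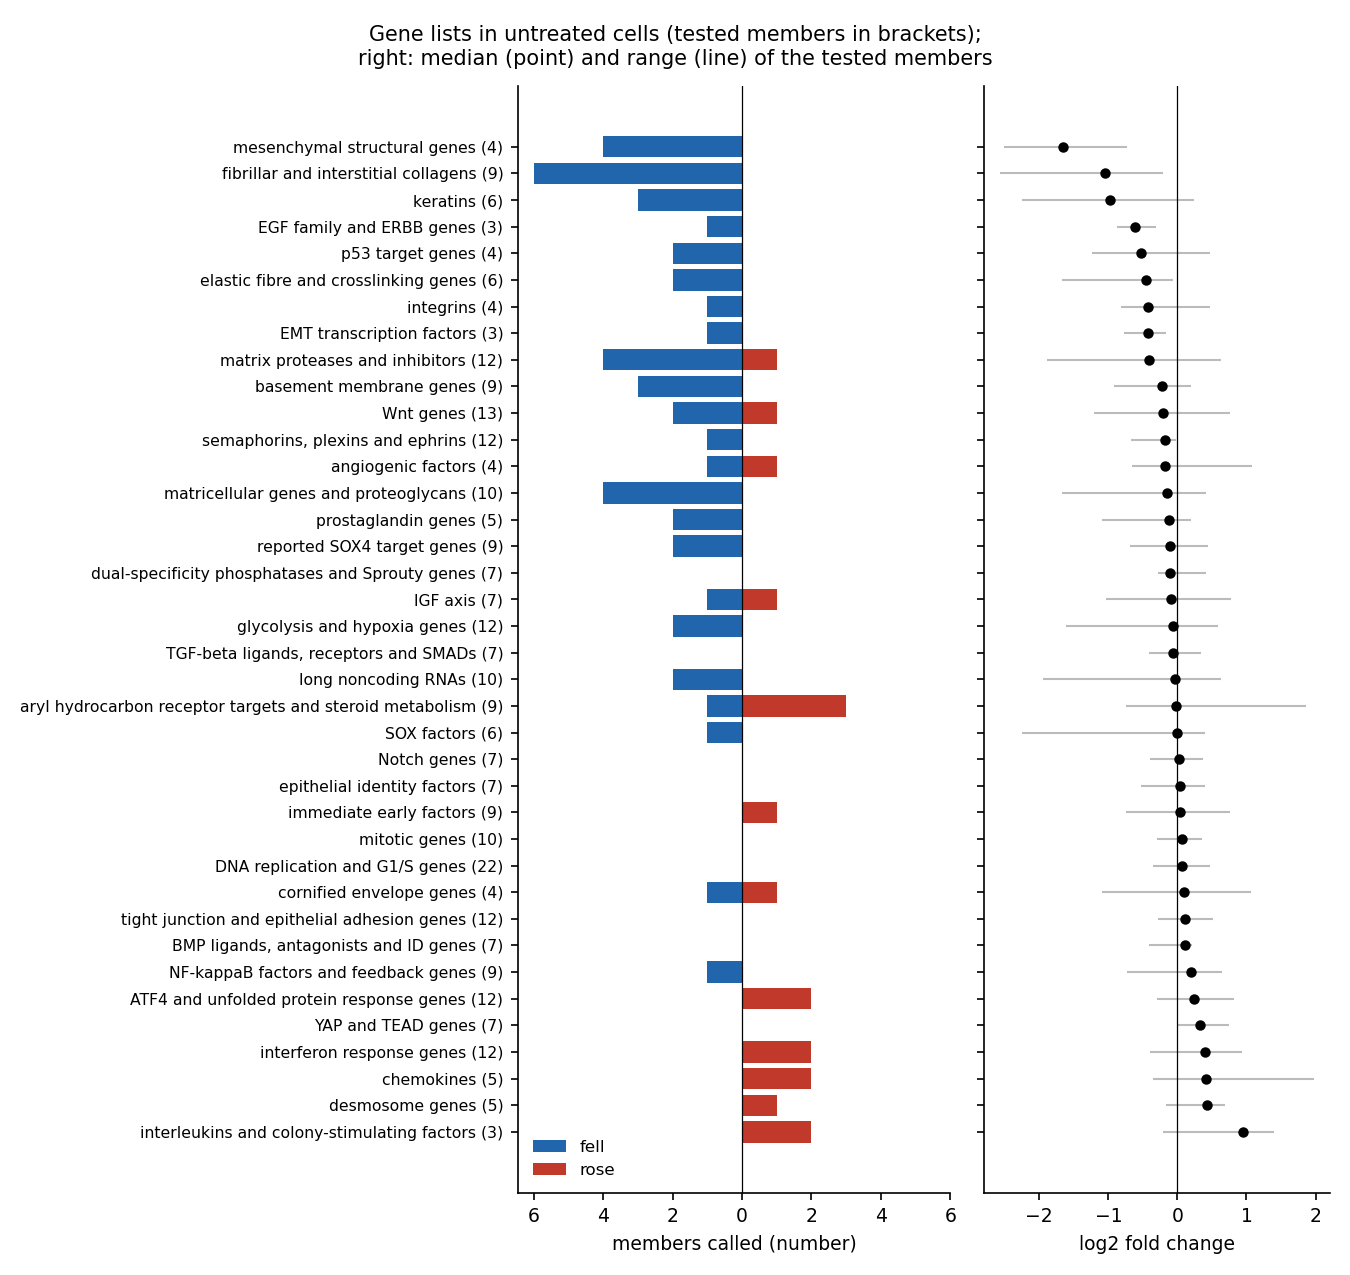
Left, number of called members of each gene list with at least 3 tested members (cell type marker lists left out), fallen in blue to the left and risen in red to the right, with the number tested in brackets. Right, the median log2 fold change (point) and the range (line) of the tested members. Among the lists plotted, mesenchymal structural genes (4 of 4) and interstitial collagens (6 of 9) have the lowest medians. Replication and mitotic genes, like several other lists, have none called, beside 4.5% of all genes tested. The lists were chosen with earlier results of these data known.

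Besides CXCL8, the chemokine gene CXCL2 went from 2.14 and 2.29 to 5.32 and 5.28 FPKM (0.97 ± 0.14, adjusted p = 0.0086), making 2 rises among 5 tested chemokines beside 1.12% of all genes that rose. CXCL2 has close relatives in the same cluster, of which CXCL3 was at 2.30 to 2.95 FPKM and not called (-0.14 ± 0.14). CX3CL1 (0.42 ± 0.18) and CCL28 (-0.36 ± 0.16) were not called either. Of 3 tested interleukins, IL1A, an alarmin of epithelia, went from 20.5 and 27.6 to 43.6 and 50.5 FPKM (0.95 ± 0.15, adjusted p = 0.012) and IL6 rose as given above. IL1B was not called (-0.21 ± 0.16). IL6 lost its call in 2 of the 8 fits without a library, with adjusted p up to 0.12, and so did CXCL2 and IL1A, with up to 0.080 and 0.085.

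Of 9 NF-kappaB factors and feedback genes none rose and 1 fell, beside 1.12% and 3.37% of all genes tested. That gene, PTGS2, encodes the inducible cyclooxygenase and was at 2.76 and 3.12 FPKM with the scrambled shRNA and 1.22 and 1.55 FPKM with the SOX4 shRNA (-0.73 ± 0.13, adjusted p = 0.018). NFKBIA (0.24 ± 0.12), ICAM1 (0.04 ± 0.15) and RELB (0.20 ± 0.23) were not called. PLA2G4A, the phospholipase that releases arachidonic acid for prostaglandin synthesis, fell too, from 5.73 and 6.83 to 1.90 and 3.0 FPKM (-1.09 ± 0.17, adjusted p = 0.013). The prostaglandin list thus had 2 falls among 5 tested genes, beside 3.37% of all genes tested. PTGES, PTGER2 and PTGER4 had log2 fold changes of 0.19, -0.12 and 0.05. PTGS2 was called in 3 and PLA2G4A in 6 of the 8 fits without a library.

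Interferon response genes lay mostly above 0. Of 12 tested, 10 had a positive log2 fold change, beside 2535 of all 5069 genes tested. By the test 2 rose, beside 1.12% of all genes, and the median was 0.40 against 0.00 for all genes tested. IRF1, a transcription factor induced by interferons, was at 5.79 and 5.60 FPKM against 12.2 and 10.5 FPKM (0.88 ± 0.12, adjusted p = 0.0062). IFIT2, an antiviral protein that binds RNA, was at 3.29 and 3.34 FPKM against 6.03 and 7.89 FPKM (0.87 ± 0.20, adjusted p = 0.049), and was called in 2 of the 8 fits without a library, with adjusted p up to 0.23. IFI44 was at 13.1 and 15.6 FPKM against 23.0 and 34.8 FPKM, with the SOX4-shRNA libraries apart from each other, and was not called (0.94 ± 0.26, adjusted p = 0.097). GBP1 (0.54 ± 0.13, adjusted p = 0.062) and OAS3 (-0.16 ± 0.11) were not called. DDX60, which is outside the list, is given among the largest rises.

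Targets of the aryl hydrocarbon receptor and genes of steroid metabolism held 3 rises and 1 fall among 9 tested, with a median of -0.03. Of all genes tested 1.12% rose and 3.37% fell. Beside CYP1A1 and SULT1E1, CYP1B1, a monooxygenase that hydroxylates estrogens, went from 2.54 in both scrambled libraries to 3.87 and 4.76 FPKM (0.58 ± 0.13, adjusted p = 0.047), and lost its call in every fit without a library. AKR1C1, a ketosteroid reductase, went from 1.82 and 2.36 to 1.04 and 0.657 FPKM (-0.74 ± 0.16, adjusted p = 0.040) and is uncertain because of near-identical relatives. It was called in 1 of the 8 fits without a library, with adjusted p up to 0.22. The receptor gene AHR was at 15.5 and 15.8 FPKM against 22.3 and 25.6 FPKM and was not called (0.58 ± 0.16, adjusted p = 0.083). HSD17B7 (-0.03 ± 0.10) and HSD17B1 (-0.18 ± 0.14) were not called.

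In the Wnt list, 2 of 13 tested genes fell and 1 rose, beside 3.37% and 1.12% of all genes tested, with a median of -0.21. DKK1, a secreted inhibitor of Wnt receptors, fell from 70.1 and 72.3 to 44.8 and 42.6 FPKM (-0.69 ± 0.10, adjusted p = 0.0086). The receptor gene FZD8 fell from 3.43 and 2.28 to 0.965 and 0.389 FPKM (-1.21 ± 0.21, adjusted p = 0.018). Both lost their call in some of the 8 fits without a library. Log2 fold changes there were -0.73 to -0.66 for DKK1 and -1.46 to -0.96 for FZD8. SFRP1, a secreted Wnt antagonist, rose from 21.9 and 22.1 to 32.1 and 30.7 FPKM (0.49 ± 0.10, adjusted p = 0.034). The transcription factor gene TCF7L1 was at 12 and 9.30 FPKM against 21.4 and 16.0 FPKM and did not pass (0.75 ± 0.18, adjusted p = 0.059). In the IGF axis, 7 tested, IGFBP4, a binding protein that holds back IGF, fell from 38.3 and 33.5 to 19.2 and 14.9 FPKM (-1.04 ± 0.15). The RNA-binding protein gene IGF2BP3 rose (0.67 ± 0.14), and both calls are to be read beside the same shares of all genes tested. SFRP1 kept its call in 2 and IGF2BP3 in 3 of the 8 fits without a library.

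The calls in the following small lists are to be read beside 3.37% of all genes tested that fell and 1.12% that rose. Among 4 angiogenic factors tested, FGF2 rose and VEGFC, the growth factor of lymphatic vessels, fell from 51.6 and 49.9 to 33.8 and 30.2 FPKM (-0.65 ± 0.10, adjusted p = 0.013). All 12 tested semaphorins, plexins and ephrins had a log2 fold change below 0, beside 2534 of all 5069 genes tested, with a median of -0.19. One of them, the repellent guidance factor SEMA3A, fell (-0.67 ± 0.15, adjusted p = 0.048), and SEMA3C (-0.35 ± 0.15), EFNB1 and EPHA2 did not pass the test. EREG, a ligand of the EGF receptor, fell from 6.56 and 7.35 to 3.84 and 4.62 FPKM (-0.61 ± 0.13, adjusted p = 0.039), and AREG was not called (-0.88 ± 0.31, adjusted p = 0.17). The integrin gene ITGA10 fell (-0.82 ± 0.13, adjusted p = 0.012), 1 of 4 tested. VEGFC and ITGA10 lost their call in some of the 8 fits without a library. Log2 fold changes there were -0.73 to -0.57 for VEGFC and -0.89 to -0.76 for ITGA10. Of 9 immediate early genes, EGR1 rose from 52.5 and 45.3 to 94.5 and 73.1 FPKM (0.76 ± 0.14, adjusted p = 0.025), while JUN (0.33 ± 0.14), JUNB (-0.75 ± 0.32) and MYC (0.04 ± 0.16) were not called. SEMA3A and EREG were called in 2 and EGR1 in 3 of the 8 fits without a library.

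No tested member was called in several pathways that surround SOX4 and TGF-β, beside 4.5% of all genes tested. At that share none among 7 does not set a list apart. These were the TGF-β ligands, receptors and SMADs (7 of 24 listed genes tested, median -0.06) and BMP and ID genes (7 of 19, median 0.11). The others were Notch genes (7 of 18, median 0.03), YAP and TEAD genes (7 of 17, median 0.32) and dual-specificity phosphatases and Sprouty genes (7 of 14, median -0.11). TGFB1 was at 54.3 and 41.5 FPKM against 47.3 and 26.3 FPKM (-0.42 ± 0.25), and the Notch ligand gene JAG1 at 31.1 and 31.0 FPKM against 23.2 and 23.3 FPKM (-0.40 ± 0.10, adjusted p = 0.059). TEAD1, a partner of YAP, was at 24.7 and 26.2 FPKM against 33.3 and 36.8 FPKM (0.45 ± 0.11, adjusted p = 0.062). All 7 YAP and TEAD genes had a log2 fold change above 0, beside 2535 of all 5069 genes tested. A p above the threshold does not show that these genes were alike. In a list of reported SOX4 targets, 2 of 9 tested genes fell, DKK1 and SEMA3A, beside 3.37% of all genes tested. The median was -0.11.

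No tested gene of proliferation was called. Of 43 replication and G1/S genes 22 were tested, and of 33 mitotic genes 10. None passed the test, beside 4.5% of all genes tested, and both lists had a median of 0.06. At that share few calls would be made among so few genes, so the absence of calls does not set them apart. CCND1, cyclin D1, was at 85.8 and 80.1 FPKM with the scrambled shRNA and at 82.5 and 77.7 FPKM with the SOX4 shRNA (-0.05 ± 0.10). CCNB1 (-0.12 ± 0.11), CDC20 (-0.29 ± 0.15), PLK1 (-0.16 ± 0.17), RRM1 (0.06 ± 0.14) and CDK4 (-0.06 ± 0.14) were not called. Of 4 p53 targets tested 2 fell, beside 3.37% of all genes tested. These were GDF15, a stress cytokine (-1.24 ± 0.23), and PLK3, a kinase (-0.81 ± 0.15), both with a limma adjusted p = 0.023. They were called in 3 and 2 of the 8 fits without a library.

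In metabolism, PGK1, the enzyme of the first step of glycolysis that yields ATP, fell from 173.2 and 188.6 to 95.1 and 97.7 FPKM (-0.90 ± 0.10, adjusted p = 0.0033) and was called in all 8 fits without a library. With PFKFB4 it made 2 falls among 12 tested glycolysis and hypoxia genes, whose median was -0.07, beside 3.37% of all genes tested. PGAM1 (-0.40 ± 0.12, adjusted p = 0.12), SLC2A1 (-0.21 ± 0.16) and BNIP3 (-0.13 ± 0.11) did not pass the test. Of 12 genes of the ATF4 and unfolded protein responses 2 rose, beside 1.12% of all genes tested. SLC7A11, the cystine transporter, went from 17.4 and 19.8 to 26.2 and 33.6 FPKM (0.65 ± 0.14, adjusted p = 0.043) and SESN2, a stress-induced sestrin, from 6.57 and 5.12 to 12.5 and 9.61 FPKM (0.81 ± 0.16, adjusted p = 0.033), both in 3 of the 8 fits without a library. Among 10 long noncoding RNAs, CADM3-AS1 and MIR31HG (-0.66 ± 0.12, adjusted p = 0.019) fell, beside 3.37% of all genes tested. MIR31HG lost its call in most of the fits without a library, with log2 fold changes of -0.75 to -0.57. NEAT1, at 23.2 to 58.0 FPKM over the 4 libraries, was not called.

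The same knockdown was measured in cells given TGF-β, with no library in common. Of the 171 falls in untreated cells, 170 had a negative log2 fold change there and 106 also fell by the test, which is 62.0% of the untreated falls and 72.6% of the 146 falls with TGF-β, a background of 2.88% of 5063 genes. Of the 57 rises 55 were positive and 26 also rose, 45.6% of the untreated rises and 46.4% of the 56 with TGF-β (background 1.11%, and 3.99% for both directions together). No gene was called in opposite directions. Across the 5063 genes the log2 fold changes had a Pearson r of 0.726 and a Spearman rho of 0.608. This is a description, since genes are not independent replicates, since both effects use 1 estimate of spread, and since the reading of the lost decimal marks favoured effects that were alike in the absence and presence of TGF-β.

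**Figure D4:**
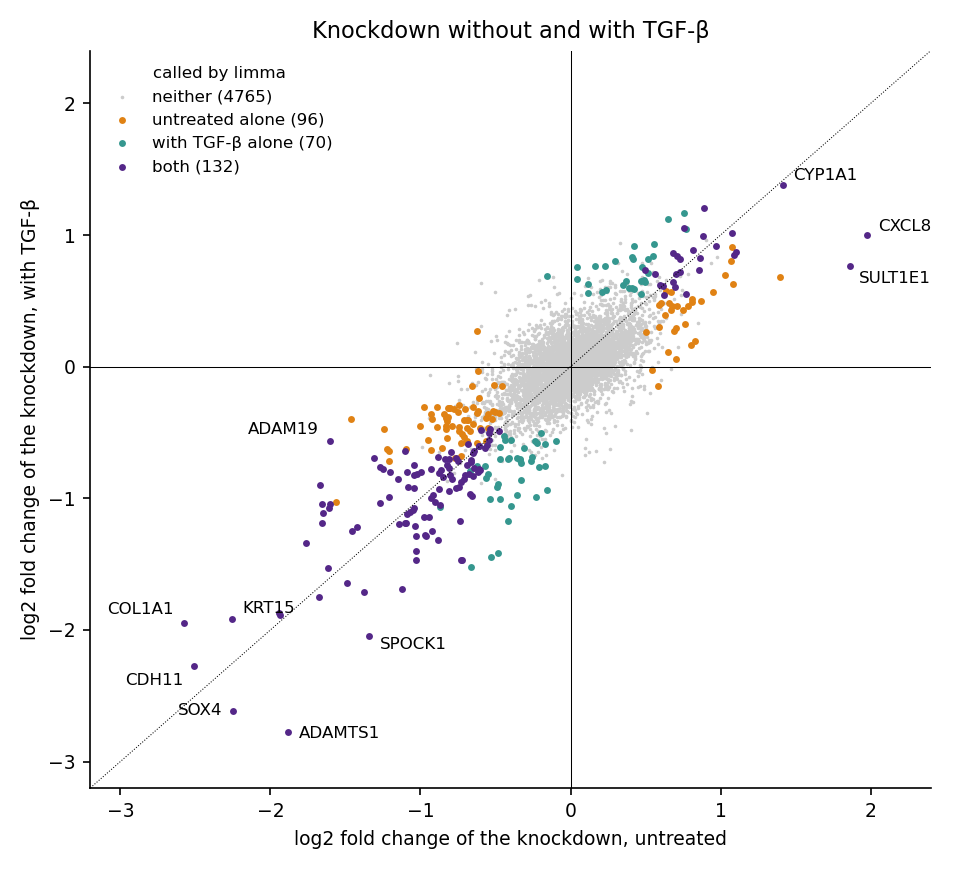
Log2 fold change of the knockdown in untreated cells (x axis) and in cells given TGF-β (y axis) for 5063 genes, coloured by the condition in which limma called them, with equal effects on the dotted line. Most called genes lie at the lower left and the upper right, 132 of them called in both conditions, and ADAM19, CXCL8 and SULT1E1 lie nearer to 0 with TGF-β.

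The difference between the effects without and with TGF-β was tested gene by gene in the same fit, and no gene passed (0 of 5063, 0%). The reading of the lost decimal marks favoured small differences of this kind, so this count does not show that the effects were alike. An unadjusted p under 0.05 was reached by 137 genes, and limma-voom on the whole reads also called 0. The fit of all kept genes and the fit with a crossed block on the replicate number did call differences, as given at the end. The smallest p was that of ADAM19, whose log2 fold change was -1.61 untreated and -0.56 with TGF-β (difference 1.04 ± 0.15, limma adjusted p = 0.63). With TGF-β its level was 51.0 and 51.8 FPKM in scrambled-shRNA cells and 33.4 and 35.6 FPKM in SOX4-shRNA cells, all above the untreated libraries. CXCL8 rose by 1.98 untreated and 1.0 with TGF-β, and SULT1E1 by 1.87 and 0.77. For ADAMTS1 the values were -1.88 untreated and -2.78 with TGF-β, and for SPOCK1 -1.34 and -2.05, all of them called. The adjusted p of the differences was 0.72 for CXCL8, SULT1E1 and ADAMTS1 and 0.87 for SPOCK1. The readings of ADAM19 and SULT1E1 were among those with a posterior under 0.99, given above.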

How the data were processed

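RNA-seq of HMLE cells was deposited as 1 table of 48175 transcripts and 8 columns. The libraries came from total RNA through a kit that removes ribosomal RNA and keeps strand, read as single 75-nt reads, per the labels' protocols; a different label names polyA RNA. The submitters' processing notes list Cufflinks 2.2.1, Cuffdiff, TopHat2 2.0.9 and the build hg19. The deposited values are FPKM with no unit in the header, so their unit is recorded as other, taken from the tools named by the authors. No column was left out (0 unused).

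In 34.1% of cells the decimal mark was lost, and 13.9% were in damaged exponent notation and set to 0. Symbols matched 97.8% of transcripts. For genes with 1 transcript, readings were sought that make FPKM a whole number of reads. Of 5389 such kept genes 5082 (94.3%) gave whole reads in at least 6 of 8 cells, and 5069 whose fold change had a posterior of at least 0.95 were tested. The posterior also favoured readings with replicates alike and with small effects of knockdown, TGF-β and their interaction. The spread behind the p-values depends in part on that choice. Genes with several transcripts were not tested in the main fit, among them 396 of the genes in the lists. The restoration and the fit were also run on simulated reads. These were drawn from genes already read, with the same knockdown effect in both conditions and no effect of TGF-β. That run cannot show how often the readings of the real values are wrong.

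limma 3.58.1 (R 4.3.3) was run on log2(FPKM + 1) with an empirical Bayes trend over all 4 groups, leaving 4 residual degrees of freedom, and genes were called at a Benjamini-Hochberg adjusted p under 0.05. Changes of genes with low values are understated on that scale. The named genes are SOX4, the 15 largest called changes per direction with groups that do not overlap, and in each of 44 lists the called members and up to 3 of the most abundant others. The members and lists were chosen with earlier results of these data known. Coordinates are from GENCODE 44 on GRCh37. Alternatives covered pseudocounts, filters, scaling, variance priors, limma-voom, stricter readings, omission of each library in turn and a block on the replicate number.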

Additional observations from a re-analysis of the deposited data

How the results depend on the processing

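The fall of SOX4 was called under every alternative run, with log2 fold changes from -3.10 (limma-voom) to -1.16 (pseudocount 5). No named gene reversed. The count of 228 called genes (57 rises, 171 falls) became 145 (36 and 109) with a filter of 5 FPKM, which left 3641 genes, and 81 (14 and 67) with the untreated groups alone, which leaves fewer libraries for the spread. Limma-voom gave 89 rises. Leaving out 1 library gave 46 to 242 calls, 5 to 69 rises and 41 to 173 falls, with SOX4 at -2.31 to -2.20 and the difference between conditions at 0 to 0 genes. The labels do not say that a replicate number marks a shared culture or day. The differences between replicates correlated at 0.569 between the untreated groups and 0.382 between the TGF-β-treated groups, but at -0.644 to -0.261 across the treatment, so the numbers were not taken as pairs over the 4 groups. With the replicate block 125 genes were called (24 and 101), and with the block crossed for the TGF-β groups, chosen after seeing the data, 854 (368 and 486), the 228 among them, and 1 difference between conditions, with 33 further named genes called. Genes given as not called are so without the block. The fit of all 12012 kept genes called 159, of which 67 were among the 228, with 19 of the 30 largest changes, and 3 differences. The cause of these changes was not tested. Depth limits genes such as IL6 and HAS2, which rest on 3 to 49 reads a library.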
